A study of Homo sapiens with 4 samples.

Results

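The genes described here are those of folding and quality control in the endoplasmic reticulum (ER), the compartment in which secreted and membrane proteins are made, and of the unfolded protein response (UPR) that adjusts it. A list of 39 genes was matched by symbol to a table of 30863 genes. Of the 39, 37 had a row under the listed symbol, and ERO1A and ERO1B had rows under their older names ERO1L and ERO1LB. The RNA, selected by its poly(A) tail before sequencing, came from HepG2, an established cell line of human liver tumor origin, labelled as hepatoblastoma and with the genotype WT. Cells were exposed for 48 h to AMF (amentoflavone, a plant biflavonoid, 90 µM in the treatment protocol) or to its solvent DMSO, with 2 libraries per group. The design text names another agent, Tub B, at 80 µM, so the compound and dose of the AMF group are uncertain. Nothing in the labels says that the libraries of a group came from separate cultures, and a p-value here reflects only how far these libraries lie apart, possibly for technical reasons. Bulk RNA does not tell a smaller number of cells of a type from less RNA per cell.

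In the ER lumen the HSP70 chaperone BiP, encoded by HSPA5, binds unfolded chains, J-domain proteins bring it substrates and exchange factors release them. Calnexin and calreticulin hold glycoproteins through their sugars, protein disulfide isomerases form and shuffle disulfide bonds, and chains that fail to fold are sent back to the cytosol for degradation. Unfolded chains activate 3 membrane sensors: the kinase and RNase IRE1 (ERN1), which splices the XBP1 message, the transcription factor precursor ATF6, which is cut in the Golgi, and the kinase PERK (EIF2AK3), which slows translation and raises ATF4. Hepatocytes secrete much of the plasma protein and rely on this machinery. Gene-level counts do not separate spliced from unspliced XBP1 message, nor show cleavage of ATF6 or phosphorylation of the sensors.

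The AMF libraries held 26966210 and 24226586 reads assigned to genes, and the DMSO libraries 25532946 and 24591071. Levels below are normalized counts (reads divided by a size factor per library), recovered from the deposited log2-scale values. Changes are log2 differences of AMF minus DMSO on the log2(normalized count + 1) scale, which understates the change of low genes. All 10 hepatocyte markers checked were present, with summed levels of 416151 and 395055 in AMF against 589046 and 569209 in DMSO, and 1 rose (HNF4A) and 7 fell. Summed levels were 36.2 and 24.7 in AMF against 209.9 and 195 in DMSO for 5 fibroblast markers. They were 37.1 and 24.7 in AMF against 5.00 and 12.3 in DMSO for 4 leukocyte markers, and 307 and 293 in AMF against 159.9 and 201 in DMSO for 4 endothelial markers. Of these, DCN, LUM, CD3E, CD68, LST1 and KDR were at 0 in both DMSO libraries. PECAM1 made up most of the endothelial sum, at 289 and 277 in AMF against 145 and 185 in DMSO. CD14 made up most of the leukocyte sum, and COL1A1 and PDGFRB together most of the fibroblast sum. Mitochondrial genes took 9.53% and 9.61% of reads in AMF, against 7.73% and 7.69% in DMSO. The part of these markers and reads in the results below was not tested.

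Most chaperones of the HSP70 system, with SDF2L1 and MANF, were higher in AMF, the most abundant oxidoreductases stayed near their DMSO level or were slightly lower, and the messages of XBP1, ERN1 and ATF6B were lower. In limma (Benjamini-Hochberg adjusted p of 0.05 over 23828 genes tested), 23 of 38 tested members passed, against 31.8% of all genes. Of these, 16 rose and 7 fell, where 15.6% of all genes rose and 16.2% fell. Among the 11137 genes averaging 100 normalized counts or more, as all tested members do, 23.6% rose and 31.1% fell. The median log2 change of the members was 0.09, beside 0.04 over all genes tested and -0.04 over those of higher mean. Both AMF libraries lay above both DMSO libraries in 18 members and below them in 11, against 33.8% and 29.7% of all genes. The groups did not overlap in 29 of 38 members, where 63.4% of all genes did so. Of the 11137 genes averaging 100 normalized counts or more, 3938 lay above, 4965 lay below and 2234 overlapped. The members are thus not set apart from genes of like level in this respect. DERL3, a paralog of the dislocation factor DERL1, shares 77.0% of its exon bases with SMARCB1 on the opposite strand. It had 2 reads in DMSO replicate 1 and 0 elsewhere and was not tested. A single member, CREB3L3, passed with a log2 change of at least 1, which 7.02% of all genes did. The other called changes were smaller, from 0.14 to 0.75 in size. With either AMF library left out, 0 members passed in limma, and 13 (without replicate 1) and 12 (without replicate 2) had an unadjusted p under 0.05. With voom on the recovered reads 3 and 2 passed there. Without DMSO replicates 1 and 2, 17 and 14 members passed in limma. Voom without either DMSO library kept all 23 calls, in a fit that gave every gene the spread of its level with none of its own, so losses of a call named below with a DMSO library left out are those in limma.

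**Figure D1:**
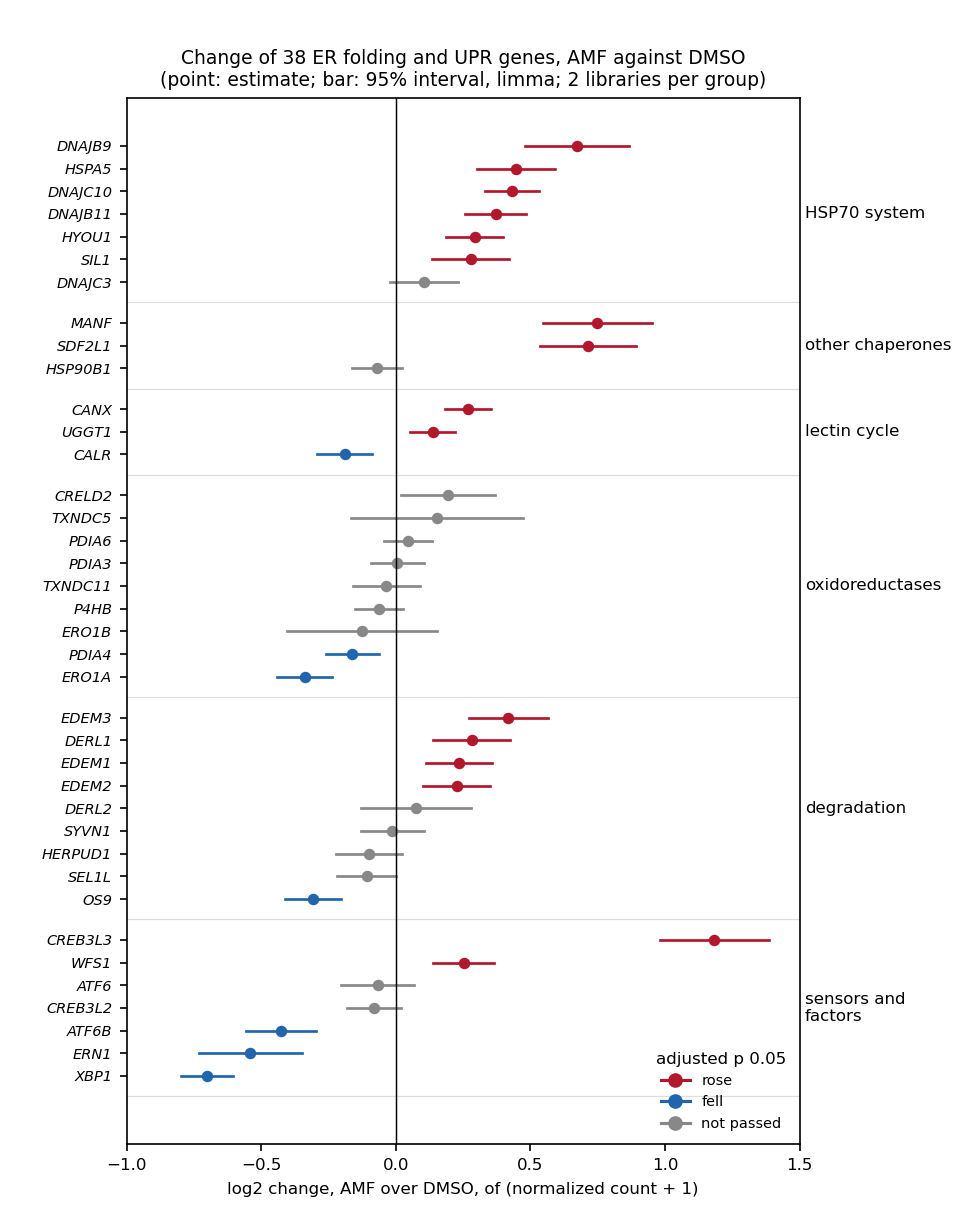
Log2 change of AMF over DMSO for the 38 tested members by role, with the limma estimate (point) and its 95% interval, not adjusted for the number of genes (bar). Changes run from -0.70 for XBP1 to 1.18 for CREB3L3, with 6 of 7 HSP70 genes and 0 of 9 oxidoreductases higher past the threshold.

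The promoters were searched for exact matches to DNA elements through which the UPR is known to act. Variant or more distant elements would be missed. RefSeq promoter windows on GRCh38.p14, from 250 bases before to 50 after an annotated start, were found for 36 members, and none was found for DERL1, DERL3 and PDIA3. They were searched on both strands for 3 motifs. These were the ER stress element (ERSE), which is CCAAT, 9 bases of any kind and CCACG and is bound by NF-Y and ATF6, the shorter ERSE-II, which is ATTGG, 1 base of any kind and CCACG, and the core of the UPR element (UPRE), TGACGTGG. Exact ERSE matches were found in windows of 8 of 36 members (22.2%), against 0.0916% of 27305 genes with windows. ERSE-II was found in HYOU1, SDF2L1 and HERPUD1 (8.33% of members, 0.0696% of all genes), and UPRE in DNAJC10, HYOU1, TXNDC11 and TXNDC5 (11.1% of members, 0.927% of all genes). The members were listed as genes of ER folding and of this response, so these shares describe the list and are no independent test. In HYOU1 the UPRE shares bases with one of 2 ERSE-II sites. The ERSE sites are shown for the 8 members that carry them. The sites are aligned on their own strand, with the fixed bases in capitals and the 9-base spacer in lower case.
HSPA5 element (chr9:125241391-125241409, minus strand): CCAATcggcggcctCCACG
CANX element (chr5:179698778-179698796, plus strand): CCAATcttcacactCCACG
CALR element (chr19:12938384-12938402, minus strand): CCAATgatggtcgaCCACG
XBP1 element (chr22:28800603-28800621, minus strand): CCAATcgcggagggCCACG
HSP90B1 element (chr12:103930216-103930234, plus strand): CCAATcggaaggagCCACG
HSP90B1 element (chr12:103930321-103930339, minus strand): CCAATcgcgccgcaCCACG
PDIA6 element (chr2:10812853-10812871, minus strand): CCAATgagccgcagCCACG
CRELD2 element (chr22:49918554-49918572, minus strand): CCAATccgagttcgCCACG
ERO1B element (chr1:236282183-236282201, plus strand): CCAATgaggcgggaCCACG
Of these 8 genes, HSPA5 and CANX rose, CALR and XBP1 fell, and HSP90B1, PDIA6, CRELD2 and ERO1B did not pass. HYOU1 and SDF2L1 rose and HERPUD1 did not pass among the ERSE-II genes. Over all 3 motifs, 14 members had a match, of which 5 rose, 2 fell and 7 did not pass. Of the 22 members with windows and no match, 10 rose, 5 fell and 7 did not pass. Over all genes tested 15.6% rose and 16.2% fell, and 23.6% and 31.1% of those averaging 100 normalized counts or more. A match is a description of the window and not a shown binding site.

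Whole windows are given for 2 genes that rose and 2 that fell, with the fixed bases of each match in capitals and positions counted from the annotated start as 1. The ERSE of HSPA5 lies at positions -66 to -48 and that of XBP1 at -52 to -34. The ERSE of CALR lies further upstream, at -225 to -207, and the ERSE-II of SDF2L1 at -188 to -178, both on the strand opposite to the gene.
HSPA5 promoter (chr9:125241294-125241593, minus strand): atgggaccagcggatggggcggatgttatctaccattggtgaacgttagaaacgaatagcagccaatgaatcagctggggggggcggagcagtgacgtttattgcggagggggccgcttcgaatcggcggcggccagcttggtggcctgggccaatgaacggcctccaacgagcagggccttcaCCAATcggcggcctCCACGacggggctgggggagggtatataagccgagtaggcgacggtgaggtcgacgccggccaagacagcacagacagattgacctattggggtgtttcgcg
SDF2L1 promoter (chr22:21642052-21642351, plus strand): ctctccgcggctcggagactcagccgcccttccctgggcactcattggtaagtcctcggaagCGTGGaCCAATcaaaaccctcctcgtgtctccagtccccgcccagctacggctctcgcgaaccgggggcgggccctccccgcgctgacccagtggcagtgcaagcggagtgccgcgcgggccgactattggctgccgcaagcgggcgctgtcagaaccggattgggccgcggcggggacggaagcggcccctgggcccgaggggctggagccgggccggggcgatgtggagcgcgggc
XBP1 promoter (chr22:28800520-28800819, minus strand): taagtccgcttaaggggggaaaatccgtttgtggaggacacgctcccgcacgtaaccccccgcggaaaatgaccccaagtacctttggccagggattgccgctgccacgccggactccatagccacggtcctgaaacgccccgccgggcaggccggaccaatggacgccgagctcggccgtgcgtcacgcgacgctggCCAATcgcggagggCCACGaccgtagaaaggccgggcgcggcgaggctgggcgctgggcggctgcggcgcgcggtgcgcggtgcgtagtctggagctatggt
CALR promoter (chr19:12938359-12938658, plus strand): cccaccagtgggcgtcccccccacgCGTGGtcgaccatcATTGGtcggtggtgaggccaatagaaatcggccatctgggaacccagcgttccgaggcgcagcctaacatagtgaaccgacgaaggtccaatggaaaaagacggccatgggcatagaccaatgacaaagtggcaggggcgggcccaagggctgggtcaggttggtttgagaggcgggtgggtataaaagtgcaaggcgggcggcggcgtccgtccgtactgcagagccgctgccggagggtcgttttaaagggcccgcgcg
Whether the position of an element bears on the change of its gene was not tested.

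Of the 7 genes of the HSP70 system, 6 rose and 1 did not pass, with a median log2 change of 0.37. For comparison, 15.6% of all genes tested rose, and 23.6% of those averaging 100 normalized counts or more. HSPA5, whose product BiP is the main HSP70 of the ER, had 31408 and 31600.0 normalized counts in AMF, against 25747 and 20760.2 in DMSO. Both AMF libraries were above both DMSO libraries, and the DMSO libraries lay further apart than the AMF libraries. The log2 change was 0.45 (SE 0.068, adjusted p = 1.30e-04 in limma), and it was 0.60 without DMSO replicate 1 and 0.29 without DMSO replicate 2. DNAJB9 (ERdj4), a J-domain protein that also holds IRE1 inactive through BiP, had 583 and 601 in AMF, against 391 and 352 in DMSO. It had the largest change of the 7, at 0.67 (SE 0.0898, adjusted p = 3.96e-05). DNAJC10 (ERdj5), a J-domain protein that reduces disulfide bonds before degradation, had 5021 and 5289.8 in AMF, against 3796 and 3849 in DMSO. Its change of 0.43 (SE 0.0465, adjusted p = 5.28e-06) kept its call with voom when either AMF library was left out. DNAJB11 (ERdj3), a secreted and luminal J-domain protein, rose by 0.37, with 2496 and 2463 in AMF against 1938 and 1897 in DMSO.

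The 2 nucleotide exchange factors of BiP changed less. HYOU1 (GRP170) had 11594 and 11075 in AMF, against 9725 and 8803 in DMSO, a log2 change of 0.29 (SE 0.0486, adjusted p = 2.79e-04). SIL1 had 1090.1 and 1039 in AMF, against 891 and 865 in DMSO, a log2 change of 0.28 (SE 0.0672, adjusted p = 0.00513). In both genes the groups did not overlap. DNAJC3 (p58IPK), a J-domain protein that also inhibits PERK and related kinases, had 2538 and 2686 in AMF, against 2550.1 and 2308 in DMSO. Here the groups overlapped, and the change of 0.11 had a 95% interval of -0.02 to 0.23 (adjusted p = 0.202). In limma the calls of HYOU1 and SIL1 ended without DMSO replicate 2, and that of SIL1 also without DMSO replicate 1.

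Among other chaperones, SDF2L1 and MANF rose and HSP90B1 did not pass. MANF, a secreted protein that binds BiP, had 2112 and 2113 in AMF, against 1444 and 1093 in DMSO, the second largest rise of the members. The log2 change was 0.75 (SE 0.0945, adjusted p = 2.30e-05). SDF2L1, a partner of ERdj3, had 1539 and 1533 in AMF, against 1037 and 845 in DMSO, a log2 change of 0.71 (SE 0.0828, adjusted p = 1.04e-05). In both genes the AMF libraries were within 6 counts of each other, whereas DMSO replicate 1 stood above DMSO replicate 2. The changes of MANF were 0.95 and 0.55, and those of SDF2L1 0.86 and 0.57, without DMSO replicates 1 and 2. HSP90B1 (GRP94), the HSP90 of the ER, had 21617 and 21118 in AMF, against 23427 and 21459 in DMSO. Its change of -0.07 had an interval of -0.16 to 0.02 (adjusted p = 0.248). HSP90B1 and PDIA3 have processed pseudogenes, which may share some of their reads.

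**Figure D2:**
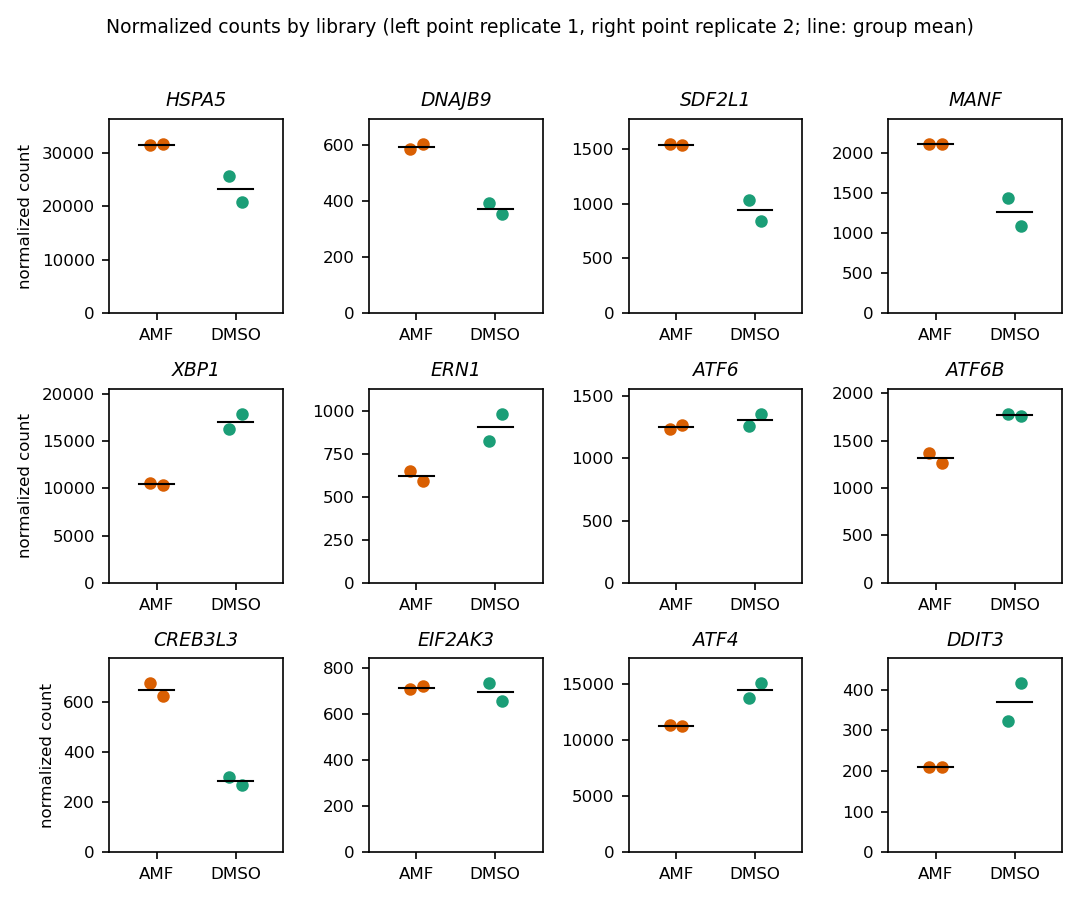
Normalized counts in each library (left point replicate 1, right point replicate 2) with the group mean (line), AMF left and DMSO right, each axis starting at 0. HSPA5, DNAJB9, SDF2L1, MANF and CREB3L3 lie higher in both AMF libraries, XBP1, ERN1, ATF6B, ATF4 and DDIT3 lower, and ATF6 (1235 and 1265 against 1263 and 1358) and EIF2AK3 overlap.

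The 3 genes of the lectin cycle did not share a direction. Calnexin (CANX), the membrane lectin, had 29594 and 30359 in AMF, against 25776 and 23995 in DMSO, and rose by 0.27 (SE 0.0398, adjusted p = 9.90e-05). Calreticulin (CALR), its soluble counterpart with the same sugar specificity, had 30299 and 29117 in AMF, against 35929 and 31966 in DMSO. It fell by 0.19 (SE 0.0476, adjusted p = 0.00633), so the 2 lectins moved in opposite directions. Without DMSO replicate 1 the change of CALR was -0.11 and the call ended in limma (adjusted p = 0.153). UGGT1, the glucosyltransferase that returns unfolded glycoproteins to both lectins, had 9648 and 9530.0 in AMF, against 8723 and 8717 in DMSO. Its rise of 0.14 (SE 0.039, adjusted p = 0.0143) was the smallest called change among the members, and its call ended in limma without either DMSO library.

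None of the 9 oxidoreductases rose, 2 fell and 7 did not pass, with a median log2 change of -0.04. The share that fell (22.2%) lay between that of all genes tested (16.2%) and that of genes averaging 100 normalized counts or more (31.1%). Of those 2 sets, 15.6% and 23.6% rose. ERO1A, the oxidase that passes electrons from the disulfide isomerases to oxygen, had 3243 and 3218 in AMF, against 4178 and 3996 in DMSO. It fell by 0.34 (SE 0.0476, adjusted p = 6.24e-05). Its paralog ERO1B had 178 and 176 in AMF, against 204 and 184 in DMSO, a lower pair that did not pass (-0.13, interval -0.41 to 0.15, adjusted p = 0.513). PDIA4 (ERp72), a disulfide isomerase, had 16745 and 16226 in AMF, against 19365 and 17552 in DMSO. It fell by 0.16 (SE 0.0455, adjusted p = 0.0133), and its call ended in limma without DMSO replicate 1 (adjusted p = 0.172) and with no filter on low counts (adjusted p = 0.0533).

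The other disulfide isomerases differed by less than the spread between libraries. P4HB, the archetypal protein disulfide isomerase, had 34068 and 32931 in AMF, against 36411 and 33585 in DMSO, a log2 change of -0.06 (interval -0.15 to 0.03). PDIA3 (ERp57), the partner of the lectins, had 13505 and 13321 against 14055 and 12704 in DMSO, a change of 0.01 (interval -0.09 to 0.10). PDIA6 had 13341 and 13323 in AMF against 13382 and 12486 in DMSO, a change of 0.04 (interval -0.04 to 0.13). Exons of the opposite-strand genes ELL3 and ATP6V1C2 overlap 14.8% of PDIA3 and 25.2% of PDIA6. For these 3 abundant genes the intervals leave room for changes of at most 0.15 in either direction. TXNDC11, a thioredoxin-domain protein, changed by -0.04 with overlapping groups. CRELD2, a small secreted oxidoreductase often induced with MANF, had 1323 and 1363 in AMF against 1297 and 1065 in DMSO. Its change of 0.19 missed the threshold (adjusted p = 0.0899) but passed with voom, with library totals as scaling and with the filter on low genes set to a mean of 10 (adjusted p from 0.0436 to 0.0453). In limma it was 0.33 and passed without DMSO replicate 1 (adjusted p = 0.0423), and was 0.05 and did not pass without DMSO replicate 2 (adjusted p = 0.551). TXNDC5 had 138 and 142 against 128 and 124 in DMSO, a change of 0.15 (adjusted p = 0.486). In GENCODE release 29, 60.6% of its exon bases also belong to the readthrough gene BLOC1S5-TXNDC5, and how reads common to both were counted is not given in the sources used here.

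Genes of ER-associated degradation include the mannosidase-like EDEM proteins, which mark misfolded glycoproteins, and the ubiquitin ligase complex. Of 9 tested, 4 rose, 1 fell and 4 did not pass, with a median log2 change of 0.08. Over all genes tested 15.6% rose and 16.2% fell, and 23.6% and 31.1% of those averaging 100 normalized counts or more. EDEM3 had 1199.7 and 1218 in AMF, against 944 and 867 in DMSO, and rose by 0.42 (SE 0.0681, adjusted p = 2.33e-04). EDEM1 had 2579.6 and 2833 in AMF, against 2255 and 2341 in DMSO, and rose by 0.23 (adjusted p = 0.00538). EDEM2 had 2379.9 and 2218 in AMF, against 1899 and 2033 in DMSO, and likewise rose by 0.23 (adjusted p = 0.00815). All 3 EDEM genes were thus higher in both AMF libraries, although the calls of EDEM1 and EDEM2 ended in limma without either DMSO library. DERL1, a membrane protein of the dislocation channel, had 1098 and 1072 in AMF, against 918 and 869 in DMSO, and rose by 0.28 (adjusted p = 0.00461, lost in limma without DMSO replicate 2). DERL2, its paralog, overlapped between groups (0.08, interval -0.13 to 0.28).

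SYVN1, SEL1L and HERPUD1 did not pass. SYVN1, the ligase HRD1 itself, had 2153 and 2248 in AMF against 2167 and 2276 in DMSO (-0.01, interval -0.13 to 0.10). FAU, on the same strand, overlaps 7.24% of its exon bases and averaged 4252 in AMF against 3213 in DMSO, and the part of such reads in the value of SYVN1 was not tested. SEL1L, its adaptor, had 3182 and 3369 against 3628 and 3433 in DMSO, apart in direction but not past the threshold (-0.11, adjusted p = 0.133). HERPUD1, a scaffold of the complex and a common marker of ER stress, had 2503 and 2565 in AMF against 2578 and 2859 in DMSO (-0.10, adjusted p = 0.218). OS9, the lectin that hands glycoproteins to SEL1L, was the one gene of this group to fall. It had 3482 and 3286 in AMF, against 4152 and 4214 in DMSO, a log2 change of -0.31 (SE 0.0485, adjusted p = 1.82e-04), which was not called in limma without DMSO replicate 2. An antisense gene overlaps 13.5% of the exon bases of OS9, and reads of the 2 strands cannot be told apart in these libraries.

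Among 7 sensors and transcription factors, 2 rose (28.6%), 3 fell (42.9%) and 2 did not pass. In all genes tested the shares were 15.6% and 16.2%, and in those averaging 100 normalized counts or more 23.6% and 31.1%. XBP1, the substrate of IRE1 and itself a transcription factor of the response, had 10534 and 10392 in AMF, against 16225 and 17866 in DMSO. This was the largest fall and the smallest p of the members, at -0.70 (SE 0.0454, adjusted p = 2.95e-08), or -0.77 and -0.63 without DMSO replicates 1 and 2. ERN1 (IRE1) had 651 and 590.3 in AMF, against 828 and 984 in DMSO, a fall of 0.54 (SE 0.0896, adjusted p = 2.71e-04) that was not called in limma without DMSO replicate 2. ATF6 had overlapping groups, with 1235 and 1265 in AMF against 1263 and 1358 in DMSO (-0.07, interval -0.20 to 0.07). ATF6B, a relative of ATF6 with weaker activity, had 1371 and 1265 in AMF, against 1782 and 1759 in DMSO. It fell by 0.43 (SE 0.0612, adjusted p = 7.44e-05), with the call ended in limma without DMSO replicate 1 and kept in voom without AMF replicate 1. Messages of both IRE1 and its substrate were thus lower in AMF, while most HSP70 genes were higher.

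The remaining factors include the member that moved most. CREB3L3 (CREB-H), a liver-enriched, membrane-bound relative of ATF6 that acts on lipid and acute-phase genes, had 672 and 622 in AMF, against 299 and 270.0 in DMSO. Its log2 change was 1.18 (SE 0.0945, adjusted p = 2.54e-07), a 2.27-fold rise with an interval of 1.97 to 2.62, and voom called it with either AMF library left out. CREB3L2 (BBF2H7), which drives secretion of matrix in cartilage, had 5501 and 5414 in AMF against 5978 and 5569.6 in DMSO (-0.08, adjusted p = 0.22). WFS1 (wolframin), an ER membrane protein that restrains ATF6, had 4817 and 4699 in AMF, against 4212 and 3789 in DMSO, and rose by 0.25 (SE 0.0533, adjusted p = 0.00198). Its call ended in limma without DMSO replicate 2.

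Per kilobase of exon (GENCODE release 29, since the counting annotation is not given), the members covered a wide range. CALR stood highest, at 10946 normalized counts per kilobase in AMF against 12508 in DMSO, with HSPA5 at 8061 against 5950.3 and P4HB at 6317 against 6599.7. XBP1 stood at 3455 in AMF against 5629 in DMSO, among the abundant disulfide isomerases and far above the sensors. Sensor messages were low, with ERN1 at 57.1 in AMF against 83.4 in DMSO and ATF6 at 158 against 166. As a share of all counted reads the 39 members took 1.11% and 1.10% in AMF, against 1.11% and 1.04% in DMSO. The HSP70 system took 0.219% in both AMF libraries against 0.176% and 0.154% in DMSO, and the sensors and factors 0.0990% and 0.0972% against 0.120% and 0.125%.

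The DMSO libraries differed from each other in these genes. DMSO replicate 1 was above DMSO replicate 2 in 28 of 38 members, and in 9 of 9 oxidoreductases. The same held for 11322 of 23828 genes tested, and for 5836 of the 11137 averaging 100 normalized counts or more. The median log2 ratio over the members was 0.10. Over genes averaging 100 normalized counts or more that ratio was 0.01, and the corresponding ratio of AMF replicate 1 over AMF replicate 2 in the members was 0.02. The gap was 0.31 for HSPA5, 0.29 for SDF2L1, 0.40 for MANF and 0.28 for CRELD2, and ran the other way for XBP1 (-0.14), ERN1 (-0.25) and DERL2 (-0.27). Its part in the results was not tested. HSPA5, SDF2L1, MANF and XBP1 were called in limma without either DMSO library, and the change of HSPA5 without DMSO replicate 2 (0.29) was below its gap.

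**Figure D3:**
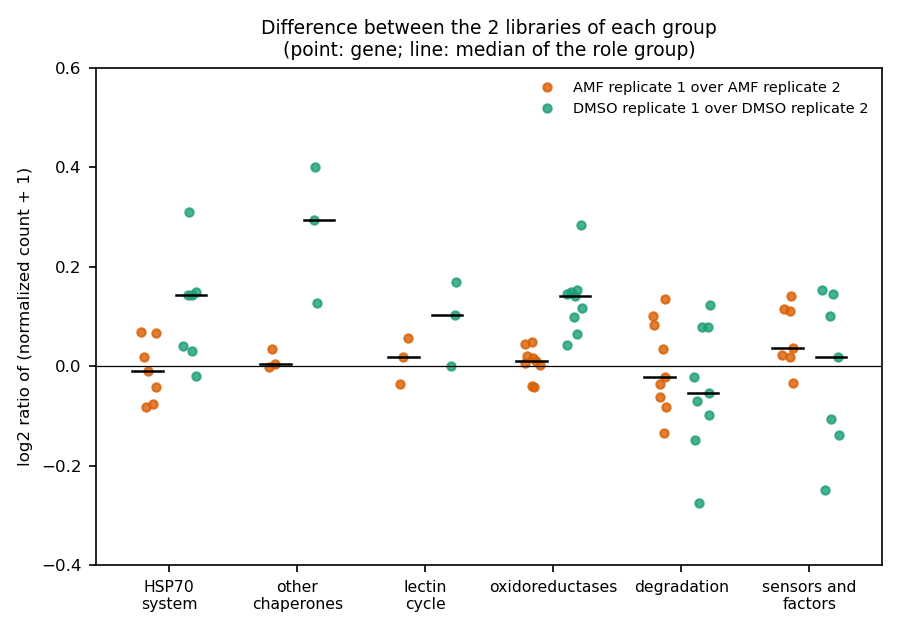
Log2 ratio of replicate 1 over replicate 2 within AMF (left of each pair) and within DMSO (right), 1 point per tested member, with the median of each role group as a line. AMF ratios center near 0, whereas the 3 other chaperones have a DMSO median of 0.29 and all 9 oxidoreductases lie above 0 in DMSO.

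The PERK arm, the third branch of the response, was read from 10 genes, of which 1 rose, 5 fell and 4 did not pass (median log2 change -0.26), where 15.6% of all genes tested rose and 16.2% fell, and 23.6% and 31.1% of those averaging 100 normalized counts or more. The sensor EIF2AK3 (PERK) had 706 and 721 in AMF, against 732 and 656 in DMSO, with overlapping groups (0.04, adjusted p = 0.741). ATF4, the transcription factor it induces mainly by translation, had 11411 and 11238 in AMF, against 13822 and 15087 in DMSO, and fell by 0.35 (SE 0.0443, adjusted p = 2.33e-05). DDIT3 (CHOP), the pro-apoptotic factor downstream of ATF4, had 209.9 and 211 in AMF, against 324 and 416 in DMSO, and fell by 0.80 (SE 0.126, adjusted p = 1.71e-04). The asparagine synthetase ASNS, an ATF4 target, also fell by 0.80. The member of this arm that rose was PPP1R15A (GADD34), the phosphatase subunit that reverses the block of translation, with 1562 and 1824 in AMF against 883 and 1322 in DMSO (0.64, adjusted p = 0.00159). Its log2 ratio of DMSO replicate 1 over DMSO replicate 2 was -0.58, near the size of the change. Of 13 tested other UPR genes, 3 rose and 4 fell. The ER membrane factor CREB3 (0.44) and the death suppressor TMBIM6 (0.23) rose, and NFYB (-0.52), a subunit of the NF-Y factor that binds the CCAAT part of the ERSE, and the ATF6 protease MBTPS1 (-0.29) fell.

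Over 150 tested genes of 10 lists of the wider pathway, the PERK arm included, 34 rose (22.7%) and 39 fell (26.0%), with a median log2 change of 0.0016 (MARCHF6, PDILT and ATL3 were not analysed here). These shares are near those of genes averaging 100 normalized counts or more, of which 23.6% rose and 31.1% fell. Many of the genes named from these lists, those of the PERK arm included, lost their call in limma with a DMSO library left out. Few of these losses are marked in the text. Of 20 other ER oxidoreductases, 7 rose and 3 fell. The largest rise was that of AGR2, a disulfide isomerase of mucus-secreting cells, with 601 and 661 in AMF against 49.0 and 38 in DMSO (3.84, SE 0.152, adjusted p = 2.38e-10), or 2.40 on the deposited log2 scale. PDIA2, the pancreatic disulfide isomerase, had 1789 and 1651 in AMF against 869 and 766 in DMSO and rose by 1.07, while TXNDC16 (-1.10) and TMX4 (-0.47), thioredoxin-domain proteins, fell.

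The counts of the lists below stand beside 15.6% risen and 16.2% fallen over all genes tested. Among genes averaging 100 normalized counts or more these shares were 23.6% and 31.1%. Of 24 other folding factors, 2 rose (8.3%) and 6 fell (25.0%), with the MANF paralog CDNF higher at 61.3 and 46.4 in AMF against 13.0 and 12.3 in DMSO (1.99, or 0.64 on the deposited log2 scale, adjusted p = 2.91e-04). The calcium-binding NUCB1 rose by 0.36, and the translocon J-domain protein SEC63 (-0.37) and the Toll-like receptor chaperone CNPY3 (-0.46) fell. Of 30 other degradation genes, 8 rose and 6 fell. The membrane selenoprotein SELENOK (0.40) and the rhomboid protease RHBDD1 (0.40) rose, and the ligase TRIM13 (-0.38) and the p97 cofactor UBXN6 (-0.33) fell. Of 12 genes of the oligosaccharyltransferase, which attaches the sugars that the lectins read, 6 rose and 2 fell. DAD1 rose by 0.51 and TUSC3 by 1.11 at a low level (0.42 on the deposited log2 scale, and not called in limma without either DMSO library), while STT3A (-0.14) and RPN2 (-0.11) fell. None of 11 genes of glycan processing rose and 4 fell, among them the calnexin homolog CLGN (-0.44) and the mannosidase MAN1A1 (-0.23). In the ER-phagy list of 12, the ubiquitin-like UFM1 rose (0.24) and 4 genes fell, including DDRGK1 (-0.26) and CALCOCO1 (-0.23). Of 14 calcium genes, 5 rose, with the pump ATP2A3 (0.57) and the calcium sensor STIM2 (0.43), and 5 fell, with the reticulocalbins RCN1 (-0.62) and RCN2 (-0.47). KDELR3, a receptor that returns ER proteins from the Golgi, was the one of 4 retrieval receptors to rise (0.27).

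**Figure D4:**
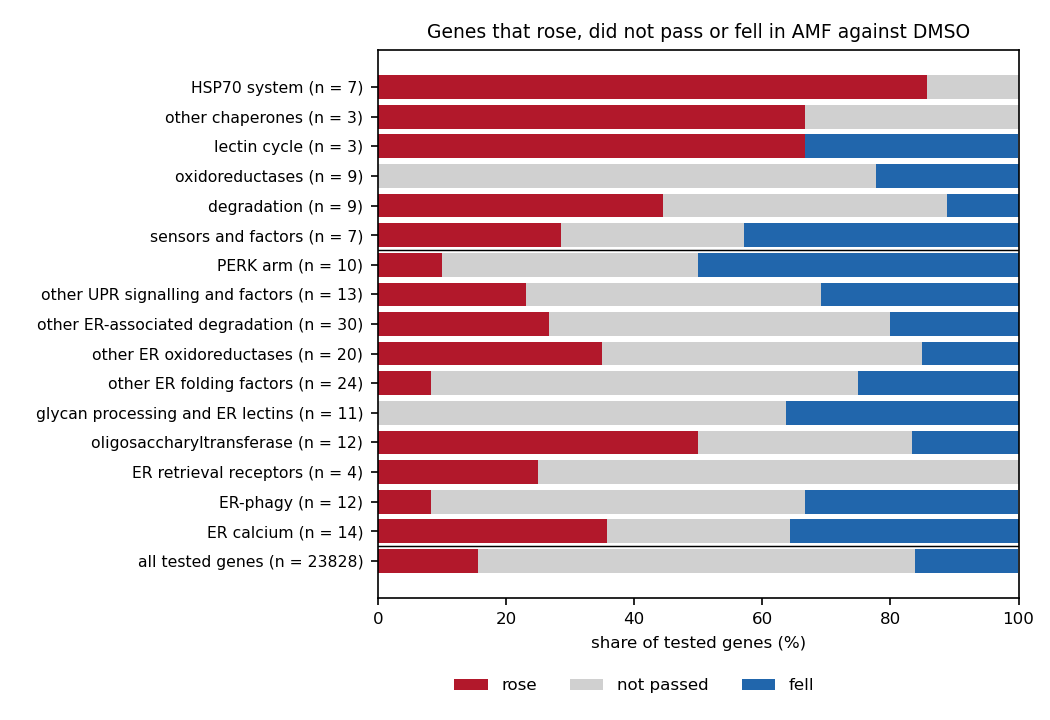
Share of tested genes that rose, did not pass or fell in AMF against DMSO (limma, adjusted p of 0.05), for the 6 role groups of the members (top), 10 further lists (middle) and all 23828 tested genes (bottom). The HSP70 system has the highest share that rose (85.7%), and the PERK arm the highest share that fell (5 of 10).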

How the data were processed

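The deposited table holds log2-scale values made by the authors from HepG2 RNA sequencing, with 1 column per library and 0 columns of other samples. The submitters' processing notes name STAR 2.7.0, featureCounts and hg19. How genes were annotated, filtered and scaled is not given in the sources used here. Per the labels' protocols, the libraries were poly(A)-selected and do not keep strand. The values have the form of a variance-stabilizing transformation, and inverting it gave normalized counts that are whole reads within 0.01 for 100% of values in each library (size factors 0.9707 to 1.0769). Precision at low counts is set by counting error, and a floor of 3 reads equals 2.79 to 3.09 normalized counts.

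Since the unit is log2, limma 3.58.1 (trend, R 4.3.3) was fitted to log2(normalized count + 1), keeping 23828 genes that average 1 normalized count or more. Group was its only term, and two-sided p-values were adjusted over all these genes. The fit was tested on simulated data. The members and lists were chosen with earlier results of these data known. Every member is named, and from each further list the 2 largest called rises and the 2 largest called falls among genes averaging 10 or more, with EIF2AK3, ATF4 and DDIT3 always named. Exons of 22 of 39 members overlap another gene in GENCODE release 29 (GRCh38), which was used for lengths and overlaps but for no position in the table. Alternatives were a pseudocount of 0.1, other filters, each library left out, the replicate block, library totals, the deposited log2 values and voom. Figures used matplotlib 3.10.9 in Python 3.11.15.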

Additional observations from a re-analysis of the deposited data

How the results depend on the processing

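With 2 libraries per group the calls rest on the spread pooled over groups and genes. In limma with 1 library left out, 0 to 3531 genes (7578 with all), 0 to 17 members (23 with all) and 0 to 36 further pathway genes (73 with all) were called. Both counts of 0 came without an AMF library, where 6575 (without replicate 1) and 6387 (without replicate 2) genes had an unadjusted p under 0.05 and the prior degrees of freedom were 0.995 and 1.003. With voom and an AMF library left out, 1315 to 1379 genes, 2 to 3 members and 7 to 8 further genes were called, and without a DMSO library 27 to 28 members. With a pseudocount of 0.1, no filter, a filter at a mean of 10, library totals, the deposited log2 values or voom on all libraries, 22 to 24 members were called. PDIA4 was lost with no filter, and CRELD2 was the member gained. Nothing in the labels says that replicate numbers pair the libraries (correlation of same-numbered deviations 0.0238 over 11137 genes). A fit with the replicate block called 24 members, 75 further genes and 8157 genes in all, CRELD2 among them (adjusted p = 0.018).

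Direction turned with 1 library left out in 6 uncalled genes, which are given as the range over libraries in limma. These were PDIA3 (-0.0675 to 0.0783, and -0.0049 to -0.067 where it turned in voom), PDIA6 (-0.0054 to 0.0945), TXNDC11 (-0.1116 to 0.0414, 0.0415 in voom), SYVN1 (-0.049 to 0.0217, 0.0175 and 0.0204 in voom), DERL2 (-0.0618 to 0.2129, -0.0589 in voom) and EIF2AK3 (-0.0366 to 0.1207, -0.0373 in voom). SYVN1 also turned with library totals (0.0085). No called member turned under the alternatives run, and no member's fold change moved by over 1.5 times. Calls of STT3A and KDELR3 (no filter), KDELR3 (pseudocount 0.1) and RPN2 and CALCOCO1 (library totals) also ended. The cause of these changes was not tested.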
